A study of Mus musculus with 16 samples.

Results

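Conventional CD4+ T cells of the naive mouse spleen were examined in single-cell RNA profiles of viable CD45+ cells. A cell was taken as a member when it held at least 2 UMIs (unique molecular identifiers, each standing for 1 captured RNA molecule) summed over Cd3e, Cd3d and Cd3g, at least 1 UMI of Cd4, and no UMI of Cd8a, Cd8b1, Foxp3, Cd79a or Lyz2. The members were thus chosen by their measured counts of 9 genes, which are not tested below. The rule was met by 2514 cells, out of 47060 CD45+ cells of naive spleen and 291325 CD45+ cells of the whole series. The members made up 18.1% of the 13909 naive spleen cells that reached the CD3 limit. The comparison cells reached the same CD3 limit and held a Cd8a or Cd8b1 UMI and no Cd4 UMI, which 5652 cells did; these CD8+ cells were not required to lack Foxp3, Cd79a or Lyz2.

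The series addresses how mouse kidney allografts are accepted or rejected, and the naive spleen is its reference without a transplant. The naive spleens came from wild-type C57BL/6J mice; no treatment or age is labelled. The only other cells used are CD4+ T cells of kidney grafts undergoing rejection 1 week after transplantation, labelled wild type and C57BL/6J, in a model in which C57BL/6J kidneys are placed in DBA/2J recipients, so that host and donor cells may differ in strain. The naive spleen barcodes carry 5 library tags and the rejecting kidney barcodes 2; each tag was treated as 1 library, and although the study's methods treat each mouse as its own sample, which mouse or mice lie behind a tag of these tissues is not stated, so that p-values measure the spread between libraries, which may be technical.

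CD4+ T cells recognise peptides on MHC class II molecules and act mainly by helping other cells, for which CD40 ligand, cytokines and costimulatory receptors are used. Commitment to the CD4 lineage in the thymus is driven by the transcription factor ThPOK, the product of Zbtb7b, whereas Runx3 drives the CD8 lineage and the cytotoxic programme, and each factor restrains the other. In a spleen without infection or graft most CD4+ T cells are naive cells that circulate between lymphoid organs, with smaller numbers of memory, follicular helper (Tfh), T helper 1 (Th1) and Foxp3+ regulatory (Treg) cells.

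The 5 naive spleen libraries held 8052 to 11340 cells and 30054753 to 37016197 UMIs each. Median depth was 3726 UMIs per member, 4529 per CD8+ comparison cell, 3562 per Foxp3+ CD4+ cell and 2100 per CD4+ cell of rejecting kidney. Of the barcode sequences, 238 occurred in more than 1 naive spleen library and covered 477 of the 47060 cells, 28 of them members; 4 members shared a sequence with another member. Values below are UMIs summed over the cells of 1 class in 1 library, scaled to a total of 1000000 UMIs for that sum (CPM).

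The members numbered 541, 464, 481, 597 and 431 in libraries 1 to 5, which was 4.77%, 5.76%, 5.33%, 6.59% and 4.50% of the CD45+ cells (5.39% ± 0.829, SD, n = 5 libraries). Pooled, the share was 5.34%, with a 95% exact Clopper-Pearson interval of 5.14% to 5.55% that covers counting error only. Libraries 1 and 5 held the fewest members per CD45+ cell and library 4 the most. In libraries 1 and 5 a Cd79a UMI was found in 22.6% and 22.0% of the CD3+ cells with Cd4 and without CD8 UMIs, against 15.3% to 16.3% elsewhere. Their members also had the lowest median depth, 3131 and 3256 UMIs against 3976 to 4333. The part of either in these shares was not tested. For each CD8+ comparison cell there were 0.365, 0.547, 0.494, 0.531 and 0.352 members (0.458 ± 0.0928, SD, n = 5). The comparison cells still held those with a Cd79a UMI (724) or an Lyz2 UMI (112), which the members did not. Cd4 was captured sparsely, so the share may understate the CD4+ T cells present, by an amount that was not tested. Exactly 1 Cd4 UMI was found in 1699 members (67.6%), and among cells meeting the rest of the rule without CD8 UMIs the share with a Cd4 UMI was 24.5% below 2000 UMIs and 57.1% above 6000 UMIs. Another 3620 cells passed the CD3 limit with no UMI of any other gene of the rule; they held 46.7 CPM of Cd40lg and 407 CPM of Lef1, against 59.7 and 509 CPM in the pooled members, and 213 CPM of Nkg7 against 36.6 CPM. Their Lef1 level lay below every library of the members.

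At the limits of the rule, 70 cells with a single CD3 UMI that otherwise met it held 82.7 CPM of Cd40lg and 418 CPM of Lef1. The 178 members with exactly 2 CD3 UMIs held 63.0 and 522 CPM, and the 2336 members with more held 59.5 and 508 CPM. Of 3285 cells with CD3 and Cd4 UMIs and no CD8 UMI, 602 were left out for a Cd79a UMI, 178 for a Foxp3 UMI and 83 for an Lyz2 UMI, some for more than 1 of these genes. Only 36 members (1.43%) were in the matrix that was deposited as CD8 T cells of naive spleen, which held 4387 of the 5652 comparison cells. No doublet caller was run; 1 member held under 1000 UMIs.

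The markers of the label were present in the members and are given as a description, since they were used to name the cells. Cd40lg, which encodes CD40 ligand, was at 45.0, 95.3, 53.4, 58.5 and 41.6 CPM in the members of libraries 1 to 5 and at 1.66, 2.52, 1.88, 1.14 and 1.29 CPM in the CD8+ cells. The lowest library of the members lay far above the highest of the CD8+ cells. A Cd40lg UMI was found in 19.3% of the members, against 0.0371% of 26959 B cells (median 2736 UMIs) and 0.117% of 857 myeloid cells (median 5840 UMIs), which should lack it. Lef1, a transcription factor of naive T cells, was at 457, 549, 483, 530.1 and 513 CPM in the members and at 333, 457, 364, 409 and 387 CPM in the CD8+ cells. It was higher in the members of every library, although the lowest members and the highest CD8+ cells were at the same level. Lef1 UMIs were found in 2.53% of the B cells and 0.700% of the myeloid cells. Markers of other cells were summed as a description, since the rule had removed cells with a Cd79a or Lyz2 UMI from the members. The summed level of 8 B cell markers was 470 to 596 CPM (median 504), that of 8 myeloid markers 80.7 to 263 CPM (median 98.8) with 1 marker at 0, and that of 6 NK cell markers 12.0 to 30.4 CPM (median 18.5). These levels do not show how pure the members are. The 6 red cell and platelet markers varied most, from 0.524 to 1194 CPM, with 2 markers at 0.

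The CD4+ cells were next set against the CD8+ cells of the same libraries, to show what sets the CD4 lineage apart at rest. UMIs were summed per class and library and tested with edgeR's quasi-likelihood test with the library as a block, leaving out the 9 genes of the rule. Of 9689 genes tested, 1625 were higher in the CD4+ cells (16.8%) and 972 lower (10.0%) at an adjusted p under 0.05 (Benjamini-Hochberg over all tested genes). At least 2-fold differences were fewer, with 174 genes higher (1.8%) and 299 lower (3.09%). That balance turned to 210 higher and 180 lower when the comparison cells also had to lack Foxp3, Cd79a and Lyz2 UMIs, as the members do, and to 263 and 158 against the CD8+ cells of the deposited CD8 T cell matrix. Wherever that matrix is used, the 36 members found in it were left out of the CD4+ side. The authors' choice of its cells was not examined. Of all calls, 62.6% were higher in CD4+ cells when libraries were scaled by their totals and 49.4% with TMM factors, which moved the median log2 fold change from 0.05 to -0.00.

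Among transcription factors that set the lineages apart, Zbtb7b was at 51.3, 45.6, 56.4, 50.3 and 47.8 CPM in the CD4+ cells and at 6.04, 3.21, 5.46, 4.40 and 3.88 CPM in the CD8+ cells. The classes did not overlap (log2 fold change 3.43, SE 0.13, adjusted p = 9.37e-20, edgeR). Runx3 stood the other way, at 93.5, 84.3, 79.8, 70.3 and 78.5 CPM in the CD4+ cells and 209, 229, 199, 194 and 204 CPM in the CD8+ cells. Every CD8+ value exceeded every CD4+ value (-1.35, SE 0.05, adjusted p = 2.69e-19), but Runx3 was still detected in the CD4+ cells of all 5 libraries. Eomes, a T-box factor of cytotoxic and memory cells, was lower in the CD4+ cells by a log2 fold change of -2.56 (8.92 ± 2.49 against 51.4 ± 4.33 CPM). Runx1 (1.12), Gata3 (0.88), Bcl11b (0.71) and Tox (0.63) were higher by the log2 fold changes given. Of the 12 lineage factors listed, 9 were higher and 3 lower, with a median log2 fold change of 0.40 against 0.05 over all tested genes, of which 16.8% were higher and 10.0% lower.

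The promoters of Zbtb7b and Nkg7 are shown because these genes are among the 10 furthest apart in either direction and Runx factors are known to act on both lineages. They were taken from RefSeq sequences on GRCm38.p6, each running from 250 bases before to 50 bases after a transcription start. Zbtb7b (ENSMUSG00000028042, chromosome 3, minus strand) has a pair of starts in that table, at chr3:89387622-89387921 and chr3:89393329-89393628, and Nkg7 (ENSMUSG00000004612, chromosome 7, plus strand) has its window at chr7:43436888-43437187. Capitals mark the RUNX core TGTGGT or its reverse complement ACCACA.
Zbtb7b, downstream start: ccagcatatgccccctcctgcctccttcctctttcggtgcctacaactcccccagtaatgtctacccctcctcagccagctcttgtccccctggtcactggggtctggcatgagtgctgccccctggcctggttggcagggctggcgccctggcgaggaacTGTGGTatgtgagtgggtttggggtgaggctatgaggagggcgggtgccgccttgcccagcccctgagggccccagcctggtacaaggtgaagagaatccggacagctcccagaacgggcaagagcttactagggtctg
Zbtb7b, upstream start: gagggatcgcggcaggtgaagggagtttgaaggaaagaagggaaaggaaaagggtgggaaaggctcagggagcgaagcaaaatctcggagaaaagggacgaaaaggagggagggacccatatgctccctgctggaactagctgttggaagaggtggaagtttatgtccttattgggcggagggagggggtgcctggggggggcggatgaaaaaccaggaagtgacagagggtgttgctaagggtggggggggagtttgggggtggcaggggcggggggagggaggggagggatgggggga
Nkg7: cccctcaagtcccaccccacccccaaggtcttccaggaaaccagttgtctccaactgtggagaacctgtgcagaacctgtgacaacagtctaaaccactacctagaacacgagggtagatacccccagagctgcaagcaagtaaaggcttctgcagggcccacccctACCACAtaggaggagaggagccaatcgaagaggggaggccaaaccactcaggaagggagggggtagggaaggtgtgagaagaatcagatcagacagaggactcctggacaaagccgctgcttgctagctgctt
The core lies 89 bases before the start in the Zbtb7b window that holds it and 83 bases before the start of Nkg7, and the other Zbtb7b window has none. Searched on both strands, these letters were in 5506 of 32851 promoters of the table (16.8%) and in 1226 of 9717 promoters of tested genes (12.6%; 7652 of 9689 genes matched). They were in 21 of 180 promoters of genes at least 2-fold higher in CD4+ cells (11.7%; 132 of 174 genes matched) and in 70 of 316 promoters of genes at least 2-fold lower (22.2%; 225 of 299 matched), a list that includes B cell genes which the uneven exclusion of Cd79a bears on. With comparison cells that lacked Foxp3, Cd79a and Lyz2 UMIs the letters were in 30 of 216 promoters of the higher genes (13.9%; 160 of 210 matched) and in 50 of 197 promoters of the lower genes (25.4%; 144 of 180 matched), against 1196 of 9478 promoters of genes tested (12.6%). A match is a run of letters and was not examined as a binding site.

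Helper genes were the next group. Of 12 listed genes, 10 could be tested, and 7 were higher and 0 lower in the CD4+ cells, with a median log2 fold change of 0.90, against 16.8% higher and 10.0% lower over all tested genes. Il2 and Il21 were too rare to test. Without Cd40lg, which was used to name the cells, 6 of 9 were higher and 0 lower, with a median of 0.77. Izumo1r, which encodes folate receptor 4, was at 98.0, 108, 108, 113 and 87.3 CPM against 15.4, 20.2, 17.7, 17.0 and 20.0 CPM in the CD8+ cells (2.53, SE 0.08, adjusted p = 6.23e-21, edgeR). Cd28, the costimulatory receptor for B7 molecules, was at 227, 223, 221, 209 and 225 CPM against 102, 109, 124, 104 and 104 CPM (1.02, SE 0.05, adjusted p = 2.89e-17). Both genes were higher in the CD4+ cells of all 5 libraries, which the naming rule required of Izumo1r, with no overlap. The interleukin 6 receptor gene Il6ra (0.77), the inducible costimulator gene Icos (1.06) and the OX40 gene Tnfrsf4 (1.89) were also higher, by the log2 fold changes given. Tnfsf8 (0.05), Il6st (0.05) and Slamf6 (0.02) did not pass the test.

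**Figure D1:**
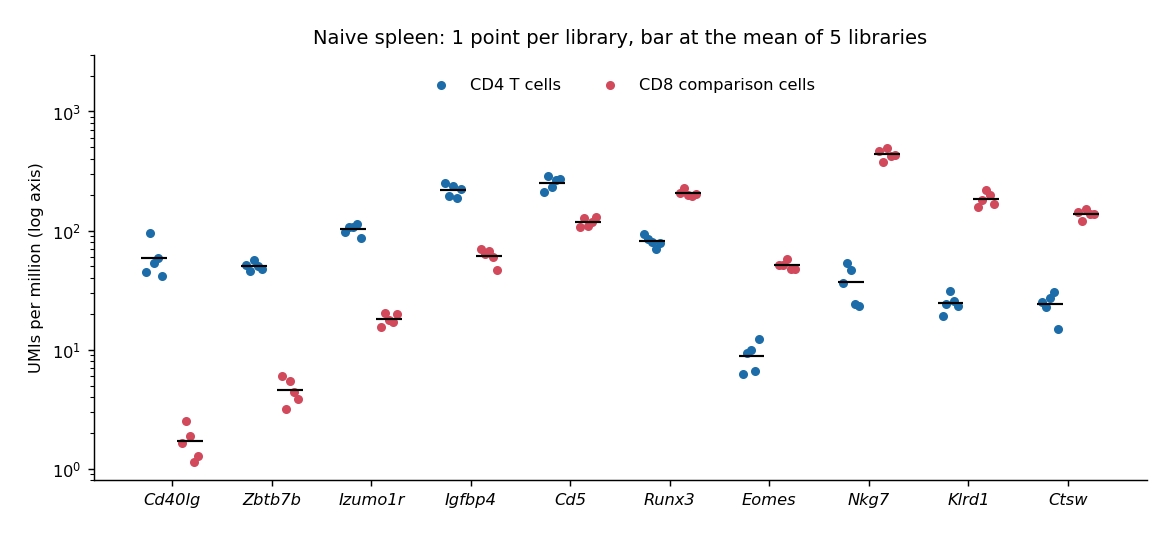
CPM of 10 genes on a log axis in the CD4+ T cells and the CD8+ comparison cells of naive spleen, 1 point per library in library order, with a bar at the mean of 5 libraries. The 10 genes were picked for display, and the classes do not overlap in any of them. How many of all tested genes do not overlap was not counted. Cd40lg, Zbtb7b, Izumo1r, Igfbp4 and Cd5 are higher in CD4+ cells, and Runx3, Eomes, Nkg7, Klrd1 and Ctsw in CD8+ cells.

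Genes that read the antigen receptor signal were also shifted. Of 14 genes of proximal T cell receptor signalling, 11 were higher and 2 lower, with a median log2 fold change of 0.37. With TMM factors 9 were higher and 2 lower. The shares over all tested genes, for this list and the immediate early genes below, were 16.8% higher and 10.0% lower. Cd5, a negative regulator whose level in naive cells follows the strength of self-recognition, was at 212, 289, 232, 264 and 269 CPM in the CD4+ cells and at 108, 127, 109, 119 and 131 CPM in the CD8+ cells. It was higher with no overlap (1.09, SE 0.04, adjusted p = 4.9e-19, edgeR). Cd6 (0.54) and Tespa1 (0.56), the receptor zeta chain gene Cd247 (0.55), the adaptor gene Lcp2 (0.53) and the kinase gene Fyn (0.48) followed with smaller log2 fold changes. The phosphatase gene Ptpn22 (-0.56) and Themis (-0.21) were lower. Lck (0.09) passed the test, but stood at -0.01 when the comparison cells had to lack Foxp3, Cd79a and Lyz2 as the members do. Immediate early genes were mostly higher too, 10 of 12, with 2 lower. The receptor-induced nuclear receptor gene Nr4a1 was at 17.7, 14.1, 23.9, 10.4 and 19.1 CPM against 5.13, 4.36, 7.90, 3.59 and 8.87 CPM (1.52, SE 0.17, adjusted p = 1.47e-08), with no overlap, whereas Cd69 (-0.25) and Fosb (-0.25) were lower; Fosb stood at 0.16 against the comparison cells with the same exclusions.

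Naive genes were shared by the classes and differed in degree. Of 12 tested, 7 were higher in the CD4+ cells and 2 lower, with a median log2 fold change of 0.24, against 16.8% higher and 10.0% lower over all tested genes. Without Lef1, which was used to name the cells, 6 of 11 were higher and 2 lower, with a median of 0.19. Igfbp4, an insulin-like growth factor binding protein gene, was at 251, 197, 238, 188 and 222 CPM against 70.5, 64.0, 66.8, 60.4 and 47.0 CPM, with no overlap (1.82, SE 0.06, adjusted p = 6.78e-21, edgeR). Foxo1 (0.39), Bach2 (0.37), Tcf7 (0.32) and S1pr1 (0.28) and the lymph node homing receptor gene Ccr7 (0.19) were higher by less. Klf2, which maintains S1pr1 and quiescence, was lower in the CD4+ cells of all 5 libraries (548 ± 48.0 against 682 ± 67.2 CPM, log2 fold change -0.31), and Klf3 (-0.27) was lower as well. Il7r (-0.07), Foxp1 (-0.03) and Txnip (-0.01) did not pass the test.

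Genes of cytotoxic and CD8 T cells stood mostly the other way. Of 18 tested, 15 were lower in the CD4+ cells and 1 higher, with a median log2 fold change of -1.56, against 10.0% lower and 16.8% higher over all tested genes. Nkg7, a granule protein gene, was at 36.5, 53.9, 46.9, 24.1 and 23.2 CPM against 469, 375, 489, 425 and 430.2 CPM (-3.57, SE 0.09, adjusted p = 7.77e-24, edgeR). Itgae, the alpha chain gene of the integrin CD103, was at 1.31 ± 0.546 against 25.4 ± 4.78 CPM (-4.37). Klrd1, the CD94 lectin receptor gene, was at 24.7 ± 4.38 against 185 ± 25.3 CPM (-2.91). These 3 genes did not overlap between the classes. The chemokine gene Ccl5 was at 103, 346, 141, 98.5 and 116 CPM in the CD4+ cells and at 803, 713, 1058, 782 and 1025 CPM in the CD8+ cells (-2.47). Library 2 stood above the other CD4+ libraries but below every CD8+ library. Gzma (-0.06) and Gzmb (-0.76) did not pass the test. Gzma was at -0.50 to 0.47 without 1 library, and at 1.43 against the CD8+ cells of the deposited CD8 T cell matrix, where it was called higher in the CD4+ cells (adjusted p = 1.84e-08, edgeR). Fasl, the death ligand gene, was the 1 higher gene, at 10.3, 10.999, 7.98, 10.00 and 10.2 CPM against 1.96, 1.15, 3.20, 1.79 and 2.59 CPM (2.19, SE 0.26, adjusted p = 4.28e-08). Of 7 Th1 genes tested, 6 were lower in the CD4+ cells, Cxcr6 (-1.60) and Tbx21 (-0.88) among them, while the interferon gamma gene Ifng (1.47) was higher, at 9.48 ± 2.82 against 3.40 ± 0.734 CPM.

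Tfh and Treg genes were higher in the CD4+ cells, at low levels. Of 8 tested Tfh genes 6 were higher and 1 lower (median log2 fold change 1.79). Maf, a transcription factor gene of Tfh and memory cells, was at 48.4, 70.2, 59.4, 75.5 and 49.1 CPM against 13.1, 4.59, 7.15, 6.69 and 8.87 CPM (2.88, SE 0.16, adjusted p = 1.92e-15, edgeR). The inhibitory receptor gene Pdcd1 varied widely among the libraries, at 3.42, 6.81, 15.5, 14.1 and 4.09 CPM, and was at 0 to 1.48 CPM in the CD8+ cells (3.45, SE 0.37, adjusted p = 6.27e-09). The lower gene was Cxcr5 (-1.01), which B cells express as well; it was at -0.13 with comparison cells that lacked Foxp3, Cd79a and Lyz2 UMIs. All 9 tested Treg genes other than Foxp3 were higher (median log2 fold change 1.54), Il2ra (1.82), Ikzf4 (1.66), Ctla4 (1.58) and Ikzf2 (0.74) among them. By the rule no member held a Foxp3 UMI, but this RNA was captured sparsely, with 234 UMIs in the 119 Foxp3+ cells. Regulatory cells without a captured Foxp3 UMI may thus be among the members, which was not tested. In library 5 Ctla4 was at 1.36 CPM in the CD4+ cells, below the CD8+ cells of that library. Memory genes were split, with 6 of 12 higher and 2 lower, against 16.8% higher and 10.0% lower over all tested genes. The 2 lower genes are thus not read as particular to the list. S100a4 (1.55), Itgb1 (0.97) and Cd44 (0.57) were among the higher and Ahnak (-1.05) and S100a10 (-0.18) were lower. S100a10 stood at 0.035 and did not pass the test in cells with at least 2 Cd4 or CD8 UMIs. Of 7 tested cell cycle genes 5 were higher, Stmn1 (1.13) and Top2a (0.78) among them. Among interferon genes Isg20 (0.64) was higher, and Ifit3 (-0.51) and Bst2 (-0.27) were lower; Ifit3 stood at 0.13 and did not pass the test against the CD8+ cells of the deposited CD8 T cell matrix. Of 6 innate-like genes Cd160 (-1.21) was lower and none higher, of the Th17 genes Rora (0.74) was higher and Ccr6 (-1.50) lower, and no Th2 gene reached the count needed for a test. Beside the shares over all tested genes, the innate-like and Th17 counts are not read as particular to their lists.

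**Figure D2:**
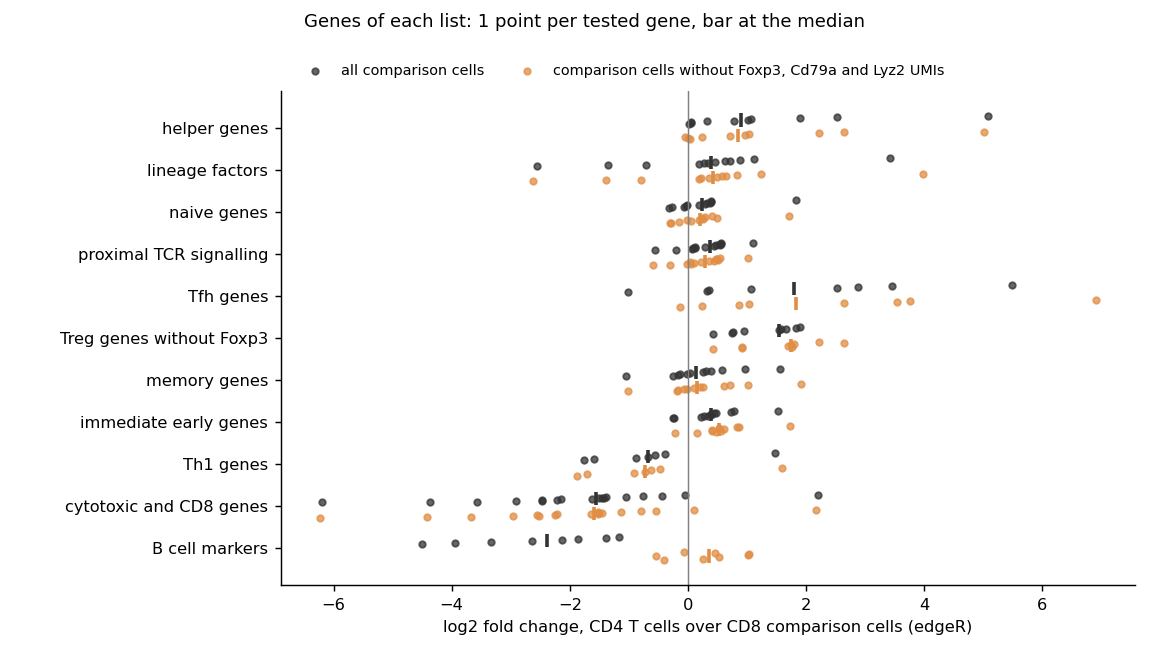
log2 fold change of CD4+ T cells over CD8+ comparison cells for each tested gene of 11 lists, with a bar at the list's median; dark points use all comparison cells and orange points those without a UMI of Foxp3, Cd79a or Lyz2. The medians of the cytotoxic genes stay below -1 and those of the helper genes near 0.9, whereas the 8 B cell markers move from a median of -2.38 to 0.36.

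By the naming rule, the 10 genes furthest above in the CD4+ cells were Cd40lg (5.08), Ly6c1 (4.74), Pdlim4 (4.22), St8sia6 (3.65), Zbtb7b (3.43), Maf (2.88), Tbc1d4 (2.69), Izumo1r (2.53), Tesc (2.29) and Trat1 (1.98), by log2 fold change. Pdlim4, a cytoskeletal adaptor gene, was at 67.3, 58.1, 57.4, 60.3 and 73.7 CPM against 2.45 to 5.92 CPM. Trat1, an adaptor associated with the T cell receptor, was at 99.8 to 123 CPM against 22.8 to 34.9 CPM. Neither overlapped between the classes. Furthest below were Ly6c2 (-4.91), Ebf1 (-4.50), Ccr9 (-3.99), Plac8 (-3.68), Nkg7 (-3.57), Ms4a1 (-3.34), Ly6d (-3.31), Mef2c (-3.21), Bank1 (-3.13) and Fam241a (-2.94). Ly6c1 and Ly6c2 encode nearly identical proteins. How reads that match both paralogs were counted was not examined, so their opposite values are uncertain. Both summed were at 111 to 128 CPM in the CD4+ cells and at 315 to 414 CPM in the CD8+ cells. Ccr9, a gut homing receptor gene, was at 6.87 ± 4.52 against 117 ± 29.5 CPM.

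Of these lower genes, Ebf1, Ms4a1, Ly6d, Mef2c and Bank1 are known from B cells, and the rule bears on them directly, since it removed cells with a Cd79a UMI from the members alone. A Cd79a UMI was found in 724 of the CD8+ cells (12.8%), and the summed B cell markers were at 1689 to 3949 CPM (median 2840) there. With the same exclusions in the comparison cells, the log2 fold changes were -0.41 for Ebf1, 0.53 for Ms4a1, 0.25 for Ly6d, 0.49 for Mef2c and -0.06 for Bank1. Of the 8 B cell markers 3 were then higher and 1 lower in place of 0 and 8. Over all 9450 genes tested with the same exclusions, 1890 were higher and 808 lower. Without them the shares were 16.8% higher and 10.0% lower. The counts of 3 and 1 are not read as particular to the B cell markers. Ly6c2 (-5.01), Ccr9 (-4.06), Plac8 (-3.35), Nkg7 (-3.67) and Fam241a (-2.98) stayed close to the values above.

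To describe how the members differ among themselves, each cell was thinned to 1000 UMIs and called positive for a list when it held at least 2 of its genes. Naive genes met this in 83.6% ± 1.52 of the members (SD, n = 5 libraries), against 83.0% ± 1.89 of the CD8+ cells; the exact two-sided sign-flip permutation test over 5 libraries, which cannot go below 0.062, gave p = 0.5. Memory genes met it in 31.2% ± 2.39 against 37.6% ± 1.73, with the members lower in 5 of 5 libraries (p = 0.062, the smallest possible in this exact test). The CD8+ cells of all these shares still held those with a Cd79a or Lyz2 UMI. Shares with the same exclusions were not taken. Gene by gene, 6 of 12 memory genes were higher in the members and 2 lower, against 16.8% and 10.0% over all tested genes. Tfh genes met it in 4.82% ± 0.832 of the members and 0.690% ± 0.187 of the CD8+ cells, with the members higher in 5 of 5 libraries (p = 0.062, exact). The Foxp3+ CD4+ cells met the Tfh list more often, in 20.4% ± 8.89 of cells. Their lowest library (6.25%) lay above the highest of the members (5.87%), so this list was not particular to the members. Of the 123 members that met the Tfh list 86 also met the naive list (69.9% of the 123 and 4.10% of the 2098 naive-list members) and 82 the memory list (66.7% of the 123 and 10.4% of the 785 memory-list members by this limit). Treg genes other than Foxp3 met it in 2.88% ± 0.819 of the members, 0.753% ± 0.301 of the CD8+ cells and 46.9% ± 15.0 of the 119 cells that met the rule except for a Foxp3 UMI. Th1 genes met it in 2.09% ± 0.693 of the members and 2.91% ± 0.630 of the CD8+ cells, and cell cycle genes in 0.618% ± 0.235 and 0.401% ± 0.276. Without thinning the shares of the members were 99.4% for naive, 78.3% for memory, 17.1% for Tfh, 10.5% for Treg, 8.70% for Th1 and 1.73% for cell cycle genes.

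**Figure D3:**
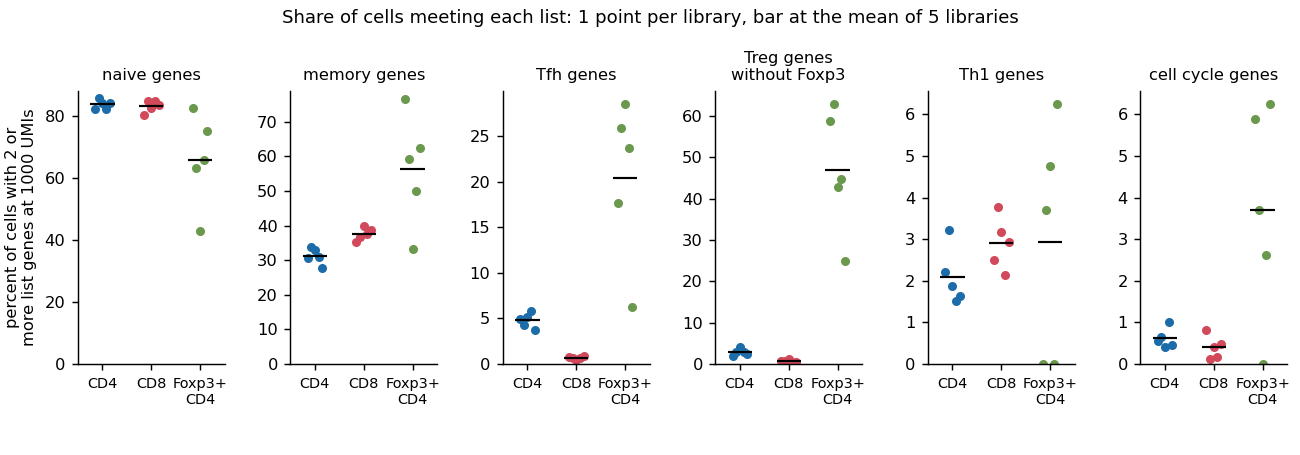
Share of cells, in percent, that held at least 2 genes of a list after thinning to 1000 UMIs, for CD4+ T cells, CD8+ comparison cells and Foxp3+ CD4+ cells of naive spleen, 1 point per library with a bar at the mean of 5 libraries. CD4+ and CD8+ cells lie together for naive genes, and CD4+ cells lie above CD8+ cells for Tfh genes. The Foxp3+ cells, 16 to 38 per library, scatter widely, but for Tfh genes they lie above the CD4+ cells in every library.

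A memory-like fraction was then separated from the rest of the members. Cells holding at least 3 of 12 memory genes after thinning numbered 66, 74, 70, 92 and 55 in libraries 1 to 5, 357 in all (14.2%), and were compared with 1728 members holding at most 1; the 428 with 2 were in neither class. The classes had like depths (medians of 3714 and 3728 UMIs per cell) but differed in ribosomal protein genes, which took 31.2% ± 0.899 of the memory-list UMIs and 40.0% ± 1.11 of the others. Of 6450 genes tested, 1159 were higher in the memory-list cells (18.0%) and 189 lower (2.93%) by edgeR; 281 were at least 2-fold higher (4.36%) and 16 at least 2-fold lower (0.248%). The median log2 fold change over all tested genes was 0.20, and with TMM factors, which set it to -0.00, 55.4% of calls in place of 86.0% were higher.

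Cytotoxic and Th1 genes were among those furthest apart. Gzma was at 88.8, 205, 204, 51.6 and 371 CPM in the memory-list cells and at 2.46, 0, 3.74, 1.63 and 1.92 CPM in the other members (6.31, SE 0.28, adjusted p = 6.08e-22, edgeR). Ccl5 was at 678, 1837, 676, 260.3 and 631 CPM against 9.03, 16.0, 13.5, 14.1 and 10.6 CPM (5.85, SE 0.16, adjusted p = 1.26e-29). Both were higher in every library, which the naming rule required, by amounts that differed several-fold among libraries. Of 11 tested cytotoxic genes 8 were higher and 1, Dapl1 (-1.16), lower. All 7 Th1 genes were higher, Ifng (5.82), Tbx21 (5.34), Cxcr6 (4.41) and Cxcr3 (4.31) among them, and with TMM factors 6 of the 7 were. The shares over all tested genes were 18.0% higher and 2.93% lower. Both tested innate-like genes, Cd160 (3.36) and Fcer1g (3.57), were higher too. The summed NK cell markers were at 65.5 to 158 CPM (median 83.5) in the memory-list cells against 0 to 6.73 CPM (median 2.46), the myeloid markers at 129 to 552 against 40.9 to 191 CPM and the B cell markers at 512 to 960 against 378 to 486 CPM. The red cell and platelet markers spread most, at 3.07 to 5972 CPM (median 9.38) against 0 to 655 CPM (median 229). The part of these markers in the differences was not tested.

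Tfh and Treg genes were higher in the same cells. All 5 tested Tfh genes were: Maf was at 267, 239, 313, 309.6 and 167 CPM against 16.4, 14.4, 12.7, 32.6 and 21.2 CPM (3.71, SE 0.16, adjusted p = 5.64e-22, edgeR), and Tox2 (3.55), Icos (1.76), Izumo1r (1.22) and Sh2d1a (1.02) followed. Cxcr5, Bcl6, Pdcd1 and Il21 of the 12 listed could not be tested. Icos, Izumo1r and Sh2d1a are helper genes too, and Maf (405 ± 151 CPM) and Izumo1r (408 ± 117 CPM) were also found in the Foxp3+ cells. These genes therefore do not single out Tfh cells. All 5 tested Treg genes were higher as well, in cells that may include regulatory cells without a captured Foxp3 UMI, which was not tested. The shares over all tested genes, for the Tfh, Treg and cell cycle lists alike, were 18.0% higher and 2.93% lower. Ikzf2, which encodes Helios, was at 112, 288, 376, 378 and 311 CPM against 49.3, 39.3, 41.2, 56.0 and 37.5 CPM (2.72, SE 0.15, adjusted p = 1.02e-18), between the other members and the 1118 ± 350.0 CPM of the Foxp3+ cells. Per cell, 17.7% ± 5.73 of the memory-list cells met the Tfh list, 8.70% ± 2.75 the Treg list, 9.25% ± 2.99 the Th1 list and 2.46% ± 0.831 the cell cycle list (SD, n = 5). The other members met them in 2.34% ± 0.538, 1.45% ± 0.350, 0.831% ± 0.645 and 0.345% ± 0.245. All 4 tested cell cycle genes were higher, with Top2a at 196, 126, 231, 117 and 27.8 CPM against 9.03, 8.82, 5.24, 4.35 and 23.1 CPM (3.90, SE 0.29, adjusted p = 3.95e-14), so that the classes nearly met in library 5.

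Naive genes were mostly lower. Of 12, 7 were lower and 2 higher in the memory-list cells, against 2.93% lower and 18.0% higher over all tested genes, and 10 were lower and 0 higher with TMM factors. Lef1 was at 281, 356, 228, 319 and 301 CPM against 496, 614, 569, 594 and 533 CPM (-0.93, SE 0.08, adjusted p = 4.02e-12, edgeR). Igfbp4 was at 108, 107, 75.9, 79.7 and 172 CPM against 260.3, 214, 269.6, 212 and 225 CPM (-1.18, SE 0.13, adjusted p = 2.36e-09). Neither gene overlapped between the classes, yet both were detected in the memory-list cells of every library, and 74.8% ± 6.97 of these cells still met the naive list against 85.2% ± 2.53 of the others. Itm2a (-1.61), Ly6c1 (-1.50), Atp1b1 (-1.46), Satb1 (-0.99), Pdk1 (-0.95), Ugcg (-0.94) and Pik3ip1 (-0.94) were lower too, whereas Klf2 (0.20) and Klf3 (0.31) were higher, Klf2 at 0.00 with TMM factors. The value of Ly6c1 is uncertain here as well, since it was not summed with its paralog Ly6c2.

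Helper genes were mostly higher in the memory-list cells. Of 10 tested, 7 were higher and 0 lower (7 and 2 with TMM factors), against 18.0% higher and 2.93% lower over all tested genes, led by Tnfrsf4 (2.48). Cd40lg was at 42.1, 144, 72.6, 44.6 and 60.3 CPM in the memory-list cells and at 44.3, 92.2, 49.4, 60.4 and 38.5 CPM in the others, higher in 3 libraries and lower in 2. It did not pass the test (0.30, SE 0.18, adjusted p = 0.245, edgeR). Library 2 was the highest for Cd40lg in both classes.

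**Figure D4:**
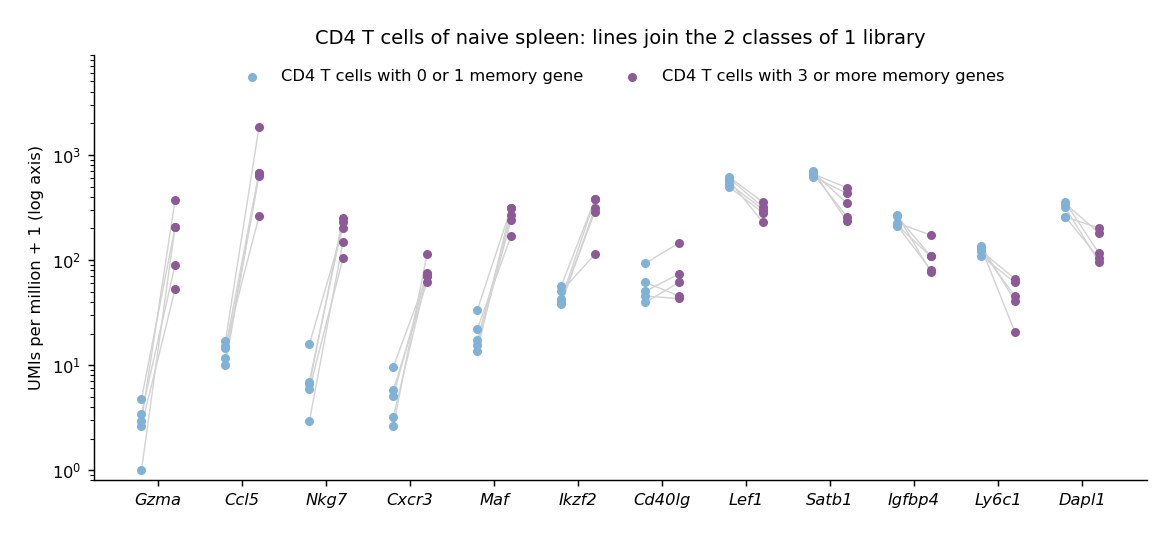
CPM plus 1 on a log axis for 12 genes in members with at most 1 memory gene and with at least 3, with a line joining the classes of each of the 5 libraries. Gzma, Ccl5, Nkg7, Cxcr3, Maf and Ikzf2 rise and Lef1, Satb1, Igfbp4, Ly6c1 and Dapl1 fall in every library, while the Cd40lg lines cross. Except for Ikzf2, Lef1 and Cd40lg these genes were named by a rule that required 1 direction in every library. The level of Ly6c1 is uncertain through its paralog Ly6c2.

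The cells nearest to the members by the rule are the 119 that met it except for a Foxp3 UMI, 17, 27, 21, 38 and 16 per library, which were 4.46% ± 1.25 of the CD4+ cells with and without Foxp3. Cells that express Foxp3 without a captured UMI count among the members, so this share may be too low. Of 6822 genes tested, 126 were higher in the members (1.85%) and 405 lower (5.94%) by edgeR; 41 were at least 2-fold higher (0.601%) and 239 at least 2-fold lower (3.5%). Ribosomal protein genes took 38.3% of the members' UMIs and 30.7% of those of the Foxp3+ cells, and the median log2 fold change was -0.18; with TMM factors it was 0.04, and 228 genes were higher and 215 lower. All 9 tested Treg genes were lower in the members, among them Il2ra, the interleukin 2 receptor alpha chain gene, at 10.8 ± 4.15 against 266 ± 113 CPM (-4.57, SE 0.27, adjusted p = 2.4e-32). Ikzf2 was at 55.9, 89.0, 101, 118 and 89.4 CPM in the members and at 1326, 1546, 1023, 1081 and 615 CPM in the Foxp3+ cells (-3.60, SE 0.14, adjusted p = 1.44e-52). Neither gene overlapped between the classes.

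Cd40lg went the other way, at 41.6 to 95.3 CPM in the members and at 0, 37.0, 12.2, 32.6 and 0 CPM in the Foxp3+ cells, which held 11 Cd40lg UMIs in all (1.50, SE 0.41, adjusted p = 0.00742, edgeR). Pdlim4 (3.90), Dapl1 (2.88), Pde3b (2.85) and Igfbp4 (2.69) were among the 10 genes furthest above in the members. Of 12 naive genes 6 were higher and 0 lower in the members (10 and 0 with TMM factors), Lef1 at 457 to 549 against 120.0 to 219 CPM (1.42, SE 0.16, adjusted p = 3.18e-13). The shares over all tested genes, for this list and the next ones, were 1.85% higher and 5.94% lower. Of 12 memory genes 10 were lower, S100a6 (-3.19) among them. Of 10 helper genes 1, Cd40lg, was higher and 3 were lower in the members than in the Foxp3+ cells, Icos (-1.79), Izumo1r (-1.98) and Tnfrsf4 (-3.90). Zbtb7b (-0.30) did not pass the test. The haemoglobin gene Hbb-bs (3.45), a red cell marker at 0.524 to 661 CPM in the members, was among the 10 named higher genes. The summed B cell markers were at 487 to 1276 CPM (median 1140) in the Foxp3+ cells against 470 to 596 CPM (median 504) in the members, and the myeloid markers at 85.3 to 442 CPM (median 130) against 80.7 to 263 CPM (median 98.8). Their part in the differences was not tested.

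Last, the rule was applied to the CD45+ cells of rejecting kidney, where 221 cells met it, 86 and 135 in the 2 libraries. Tissue, strain, transplantation and library cannot be told apart in this comparison, and ribosomal protein genes took 16.9% of the UMIs there against 38.3% in the members. Mitochondrial genes took 1.19% against 3.77%; the part of either in the differences was not tested. Of 9686 genes tested, 820 were higher in naive spleen (8.47%) and 3502 lower (36.2%) by edgeR, and 576 were at least 2-fold higher (5.95%) and 2701 at least 2-fold lower (27.9%). The median log2 fold change was -0.46; with TMM factors it was 0.08, and 1958 genes were higher and 2135 lower. Without rejecting kidney library 3, which held more of the cells, 385 genes were higher and 1843 lower; the single kidney library left is then assumed to vary like the naive spleen libraries.

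Naive genes marked the spleen cells, with 10 of 12 higher and 1, Bach2 (-0.62), lower (11 and 0 with TMM factors), against 8.47% higher and 36.2% lower over all tested genes. Klf2 was at 466, 554, 556, 579 and 585 CPM in naive spleen and at 70.4 and 29.4 CPM in rejecting kidney (3.69, SE 0.24, adjusted p = 5.93e-10, edgeR). Ccr7 was at 217 ± 9.67 against 23.5 and 4.90 CPM (4.36), and Lef1 at 457 to 549 against 135 and 118 CPM (2.03). None of the 3 overlapped between the tissues, which the naming rule required of Ccr7. No UMI of Igfbp4, Dapl1, Trim12a or Ly6c1 was found in the 221 kidney cells. Against a floor of 3 UMIs over the group, Igfbp4 was at least 41.7-fold, Dapl1 at least 51.4-fold, Trim12a at least 31.4-fold and Ly6c1 at least 20.7-fold higher in naive spleen. The value of Ly6c1 is uncertain, as its paralog Ly6c2 went the other way (-2.94) and both summed were at 111 to 128 CPM in naive spleen against 58.8 and 106 CPM. The 10 genes furthest below by the naming rule were Gm36975, Gm37240, Raet1e, Gm16599, 4930595D18Rik, Pde6h, Cntnap2, Stab2, Gm15564 and Fstl1, of which each had 0 or 1 UMI in the members. Raet1e, which encodes a ligand of the receptor NKG2D, was at least 266-fold, Gm16599 at least 210-fold, 4930595D18Rik at least 193-fold, Pde6h at least 187-fold and Cntnap2 at least 181-fold higher in rejecting kidney against the same floor over the members. The deposited matrices list 17644 genes for naive spleen and 32285 for rejecting kidney, and a difference in how genes were counted cannot be told apart from the tissues for any gene of this comparison.

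All 12 memory genes, all 8 Th1 genes and all 8 cell cycle genes were lower in naive spleen, with plain totals and with TMM factors. The shares over all tested genes were 36.2% lower and 8.47% higher with plain totals. Ahnak was at 50.2 to 91.1 CPM against 1894 and 1109.9 CPM (-4.35, SE 0.18, adjusted p = 1.46e-12, edgeR). Ifng was at 9.48 ± 2.82 against 176 and 103 CPM (-3.75) and Top2a at 29.7 ± 7.66 against 616 and 1696 CPM (-5.34). Both kidney libraries lay above every spleen library in these 3 genes. Of 12 Tfh genes 9 were lower (8 with TMM factors) and none higher, with Il21, a follicular helper cytokine gene, at 2.48 ± 2.35 against 194 and 100.5 CPM (-5.68). Of 10 Treg genes 8 were lower (8 with TMM factors), Ctla4 (-5.73) among them. Tox, linked to sustained antigen receptor signals, was at 88.3 ± 9.45 against 2064 and 1524 CPM (-4.33).

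Of 11 helper genes tested, 2 were higher in naive spleen, Il6ra (1.82) and Il6st (0.80), and 5 lower, Icos (-3.96), Tnfrsf4 (-3.88), Il21 (-5.68), Izumo1r (-0.78) and Cd28 (-0.69); with TMM factors 3 were higher and 3 lower. Over all tested genes 8.47% were higher and 36.2% lower, so these counts are not read as particular to helper genes. Cd40lg was at 45.0, 95.3, 53.4, 58.5 and 41.6 CPM in naive spleen and at 52.8 and 61.3 CPM in rejecting kidney (0.01, SE 0.40, adjusted p = 0.984), inside the range of the spleen libraries. Zbtb7b, at 45.6 to 56.4 against 41.1 and 27.0 CPM, did not pass the test (0.68, SE 0.30, adjusted p = 0.0718). Summed myeloid markers were at 453 and 686 CPM and B cell markers at 740 and 1378 CPM in the kidney cells, above every spleen library. NK cell markers were at 2.45 and 5.86 CPM there, from 1 UMI each, and red cell and platelet markers at 0. These counts lay under the floor of 3 UMIs over the group (5.18 CPM), so no order against the spleen libraries is read from them. The part of all these markers in the differences was not tested.

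**Figure D5:**
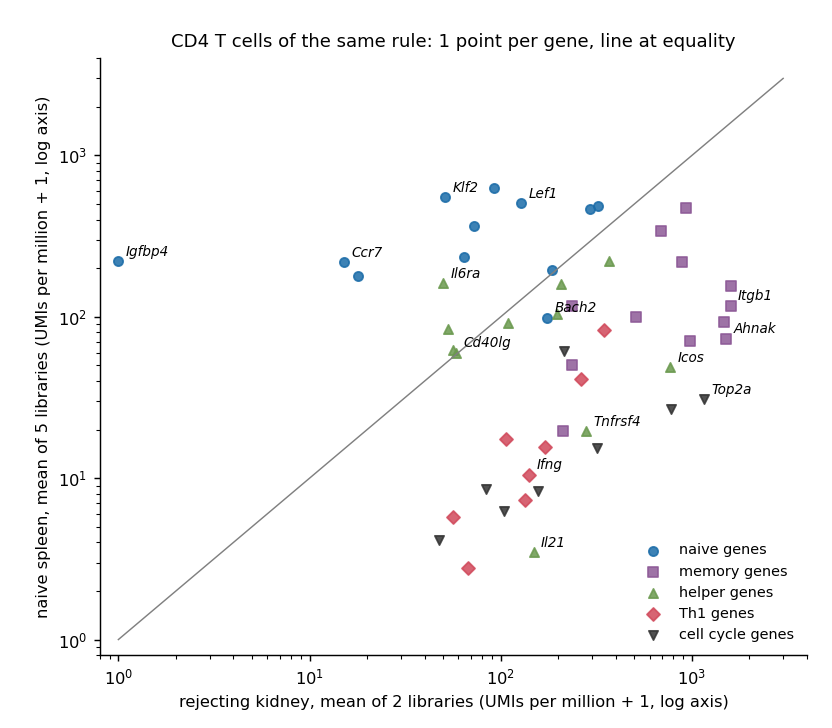
Mean CPM plus 1 in CD4+ T cells of naive spleen (5 libraries) against rejecting kidney (2 libraries), both on log axes, for the tested genes of 5 lists, 1 point per gene, with the line of equality. Naive genes lie mostly above the line, with Igfbp4 at 0 CPM in the kidney, memory, Th1 and cell cycle genes lie below it, and Cd40lg lies near it.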

How the data were processed

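Viable CD45+ cells of naive spleen and rejecting kidney were profiled with the 10x 3′ chemistry. The authors aligned and counted reads with Cell Ranger (mm10 in the submitters' processing notes, no version given) and filtered cells by UMIs, genes and mitochondrial content, with limits not given in the sources used here; the deposited matrices hold raw UMI counts per gene and cell. They list 17644 genes for naive spleen and 32285 for rejecting kidney, and the 17644 shared genes were used. Libraries were told apart by barcode tag. UMIs were summed per class and library, filtered with filterByExpr, scaled by plain totals and tested with edgeR 4.0.16 (quasi-likelihood, library as block; no block against rejecting kidney) in R 4.3.3, with a Benjamini-Hochberg adjusted p under 0.05; DESeq2 1.42.0 and TMM were alternatives. The tests were also run on simulated counts with set fold changes, whose outcome is not given here. Named genes were the 10 largest and 10 smallest log2 fold changes among called genes with at least 50 CPM in the higher class and 1 direction in all libraries, without rule, mitochondrial, ribosomal, immunoglobulin and T cell receptor genes; other genes were named from 19 lists. The members and lists were chosen with earlier results of these data known. Intervals and floors cover counting error only. Where a gene is said not to overlap between classes, the share of all tested genes without overlap was not counted. CD45+ cells of accepted grafts and of the spleens of their recipients were not analysed here. The result of 1 listed interferon gene is not reported here. Promoters came from RefSeq on GRCm38.p6.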

Additional observations from a re-analysis of the deposited data

Results flagged for a closer look

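Of 143 groups of 5 libraries checked for a library standing apart (Dixon's test at 95%), 12 were flagged; chance flags about 1 in 20 groups. In the members, Tbc1d4 was at 40.5 CPM in 1 library with the next at 72.2 CPM, Ctla4 at 1.36 with the next at 12.0, Slc22a15 at 2.73 with the next at 5.70, Fam129a at 17.4 with the next at 10.2, and Hbb-bs at 661 with the next at 189 CPM. In the memory-list cells, Ccl5 was at 1837 CPM with the next library at 678, Cxcr3 at 113 with the next at 74.8, and Atp1b1 at 18.8 with the next at 42.1 CPM. Top2a was at 23.1 CPM in 1 library of the other members with the next at 9.03 CPM. In the comparison cells, Pdlim4 was at 5.92 CPM with the next CD8+ library at 3.21, St8sia6 at 5.36 with the next at 4.13, and Hbb-bs was at 73.7 CPM in 1 library of the Foxp3+ cells with the next at 12.2 CPM.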

How the results depend on the processing

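The library block pairs the classes because both come from the same library. Without the replicate block 1144 genes were higher and 757 lower between CD4+ and CD8+ cells, 1098 and 165 between memory-list and other members, and 118 and 471 between members and Foxp3+ cells. No paired analysis was possible between naive spleen and rejecting kidney because they share no library. The cause of the moves below was not tested, beyond what each alternative changes by construction. The summed UMIs behind a class were 495175 in the 119 Foxp3+ cells and 578639 in the 221 kidney cells, against 9835492 in the members, and differences in low genes may not be detectable there. Among the counts without 1 library, the lowest for rejecting kidney came without its library 3, the 267 lower genes against Foxp3+ cells without library 4 and the 25 genes at least 2-fold lower in memory-list cells without library 5.

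Higher in CD4+ than in CD8+ cells were 1303 to 1470 genes without 1 library, 557 with DESeq2 and 526 with cells thinned to 1000 UMIs. Lower in CD4+ than in CD8+ cells were 838 to 948 genes without 1 library, 360 with cells thinned to 1000 UMIs, 581 with at least 2 Cd4 or CD8 UMIs and 642 in cells of 1000 to 5000 UMIs. At least 2-fold higher in CD4+ than in CD8+ cells were 158 to 194 genes without 1 library, 300 without the filter on low counts, 70 with cells thinned to 1000 UMIs and 263 against CD8+ cells of the deposited CD8 T cell matrix. At least 2-fold lower in CD4+ than in CD8+ cells were 291 to 328 genes without 1 library, 457 without the filter on low counts, 107 with cells thinned to 1000 UMIs, 180 against comparison cells without Foxp3, Cd79a and Lyz2, 138 in cells of 1000 to 5000 UMIs and 158 against CD8+ cells of the deposited CD8 T cell matrix.

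Higher in memory-list cells than in other members were 812 to 1073 genes without 1 library, 496 with TMM factors and 253 with DESeq2. Lower in memory-list cells than in other members were 153 to 181 genes without 1 library and 399 with TMM factors. At least 2-fold higher in memory-list cells than in other members were 277 to 374 genes without 1 library, 178 with TMM factors, 142 with DESeq2, 627 without the filter on low counts and 144 with at least 2 memory genes. At least 2-fold lower in memory-list cells than in other members were 14 to 25 genes without 1 library, 42 with TMM factors, 33 without the filter on low counts, 2 with at least 2 memory genes and 47 with at least 4 memory genes.

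Higher in members than in Foxp3+ cells were 90 to 128 genes without 1 library, 228 with TMM factors and 54 with cells thinned to 1000 UMIs. Lower in members than in Foxp3+ cells were 267 to 409 genes without 1 library, 215 with TMM factors, 162 with DESeq2 and 80 with cells thinned to 1000 UMIs. At least 2-fold higher in members than in Foxp3+ cells were 31 to 46 genes without 1 library, 71 with TMM factors and 8 with cells thinned to 1000 UMIs. At least 2-fold lower in members than in Foxp3+ cells were 192 to 259 genes without 1 library, 154 with TMM factors, 134 with DESeq2 and 71 with cells thinned to 1000 UMIs.

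Higher in naive spleen than in rejecting kidney were 385 to 798 genes without 1 library, 1958 with TMM factors, 1455 with DESeq2 and 436 with cells thinned to 1000 UMIs. Lower in naive spleen than in rejecting kidney were 1843 to 3424 genes without 1 library, 2135 with TMM factors, 2022 with DESeq2 and 1975 with cells thinned to 1000 UMIs. At least 2-fold higher in naive spleen than in rejecting kidney were 304 to 579 genes without 1 library, 1373 with TMM factors, 1052 with DESeq2 and 343 with cells thinned to 1000 UMIs. At least 2-fold lower in naive spleen than in rejecting kidney were 1687 to 2670 genes without 1 library, 1652 with TMM factors, 1653 with DESeq2 and 1703 with cells thinned to 1000 UMIs.

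Shares of members depended on depth. The share of CD45+ cells was 5.09% to 5.61% without 1 library and 1.07% when cells were thinned to 1000 UMIs before the rule was applied, and members per CD8+ cell were 0.436 to 0.484 and 0.249. For naive, memory, Tfh, Treg, Th1 and cell cycle genes in that order, the shares meeting a list were 99.4%, 78.3%, 17.1%, 10.5%, 8.70% and 1.73% without thinning, 54.9%, 14.7%, 2.04%, 1.65%, 0.609% and 0.357% at 500 UMIs, 96.2%, 68.7%, 20.7%, 14.2%, 14.4% and 6.39% with at least 1 list gene and 63.8%, 14.2%, 1.56%, 1.18%, 0.413% and 0.349% with at least 3. Without 1 library they were 83.1% to 84.0%, 30.5% to 32.1%, 4.55% to 5.09%, 2.56% to 3.09%, 1.81% to 2.24% and 0.520% to 0.668%.

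Among the genes whose log2 fold change turned, Ms4a1, Ly6d, Mef2c, Bank1, Cxcr5, Fosb, Ifit3, Lck and S100a10 had passed the test as reported and the others had not. Log2 fold changes that turned between CD4+ and CD8+ cells are given next. Ms4a1 was at 0.53 against comparison cells without Foxp3, Cd79a and Lyz2 and 1.15 against CD8+ cells of the deposited CD8 T cell matrix. Ly6d was at 0.25 against comparison cells without Foxp3, Cd79a and Lyz2 and 0.49 against CD8+ cells of the deposited CD8 T cell matrix. Mef2c was at 0.49 against comparison cells without Foxp3, Cd79a and Lyz2 and 1.74 against CD8+ cells of the deposited CD8 T cell matrix. Bank1 was at 0.47 against CD8+ cells of the deposited CD8 T cell matrix. Cxcr5 was at 0.13 in cells of 1000 to 5000 UMIs. Fosb was at 0.35 with cells thinned to 1000 UMIs, 0.16 against comparison cells without Foxp3, Cd79a and Lyz2, 0.12 with at least 2 Cd4 or CD8 UMIs, 0.25 in cells of 1000 to 5000 UMIs and 0.41 against CD8+ cells of the deposited CD8 T cell matrix. Foxp1 was at 0.052 against comparison cells without Foxp3, Cd79a and Lyz2, 0.011 in cells of 1000 to 5000 UMIs and 0.023 against CD8+ cells of the deposited CD8 T cell matrix. Gzma was at 0.11 against comparison cells without Foxp3, Cd79a and Lyz2, 0.19 with at least 2 Cd4 or CD8 UMIs, 1.43 against CD8+ cells of the deposited CD8 T cell matrix and -0.50 to 0.47 without 1 library. Ifit3 was at 0.13 against CD8+ cells of the deposited CD8 T cell matrix. Il6st was at -0.086 in cells of 1000 to 5000 UMIs, -0.048 against CD8+ cells of the deposited CD8 T cell matrix and -0.0026 to 0.11 without 1 library. Lck was at -0.0092 against comparison cells without Foxp3, Cd79a and Lyz2 and -0.019 against CD8+ cells of the deposited CD8 T cell matrix. S100a10 was at 0.035 with at least 2 Cd4 or CD8 UMIs. Slamf6 was at -0.028 with TMM factors, -0.030 with DESeq2, -0.14 in cells of 1000 to 5000 UMIs, -0.042 against CD8+ cells of the deposited CD8 T cell matrix and -0.022 to 0.046 without 1 library. Tnfsf8 was at -0.043 against comparison cells without Foxp3, Cd79a and Lyz2 and -0.022 against CD8+ cells of the deposited CD8 T cell matrix. Txnip was at 0.034 with cells thinned to 1000 UMIs and -0.035 to 0.023 without 1 library. Log2 fold changes that turned between members and Foxp3+ cells are given next. Zbtb7b was at -0.61 to 0.032 without 1 library. Log2 fold changes that turned between naive spleen and rejecting kidney are given next. Cd40lg was at -0.22 with cells thinned to 1000 UMIs and -0.22 to 0.16 without 1 library.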
